A study of Mus musculus with 8 samples.

Results

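The Zbtb genes form the family of zinc-finger proteins to which Bcl6 belongs. Members were taken as every gene with a probe set of its own whose symbol is Zbtb followed by a digit, with the brightest probe set kept where a gene had more than 1. This gave 42 of 19938 genes, and Bcl6 itself was left out. No probe set shared by several genes carried a Zbtb symbol. Of the 42, 40 are Zbtb genes proper. The other two only borrow the name of a neighbour: Zbtb8os encodes archease, a cofactor of the tRNA ligase, and Zbtb11os1 is a long non-coding RNA.

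Expression was measured on GeneChip arrays in total RNA of laser-microdissected neocortical layers II-IV from 8 mouse pups at postnatal day 5, with 1 array per pup. The 4 control pups were Bcl6 flox/flox and Nex +/+, so they carried the floxed Bcl6 alleles without Cre. The 4 mutant pups were Bcl6 flox/flox and Nex Cre/+, with Cre made from the Nex (Neurod6) locus in excitatory cortical neurons. Interneurons, glia and vessels in the captured tissue do not normally make Neurod6, so the mutants are a model of Bcl6 loss in 1 neuron class, measured in a mixed tissue. Strain and sex are not given in the labels. The series title places the study in the developmental death of cortical projection neurons.

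Proteins of this family carry a BTB domain near the amino end and C2H2 zinc fingers near the carboxyl end. The fingers read a DNA sequence, and the BTB domain pairs the protein with itself or a relative and recruits co-repressors such as NCoR, SMRT and BCOR with their histone deacetylases. Several members set cell fate: Zbtb18 and Zbtb20 in the developing cortex and hippocampus, Zbtb7b and Zbtb16 in T cell lineages.

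The arrays were alike in general level. Array medians over all genes lay between 5.54 and 5.59 on the log2 scale. The 8 excitatory neuron markers tested had a mean level of 9.08 to 9.36 in controls and 9.12 to 9.30 in mutants, and the ranges of interneuron, astrocyte, oligodendrocyte lineage, microglia, endothelial, mural and lymphocyte markers overlapped between genotypes as well. The Bcl6 probe set read 6.23 to 6.58 in controls and 6.61 to 6.96 in mutants, so its signal was higher, not lower, in the mutant arrays. All mutants lay above all controls, with a difference of 0.37 ± 0.10 (SE) and a limma adjusted p of 0.655. It is not known here whether its probes fall in the floxed region, so this level is no check on the deletion. The gene that holds Cre, Neurod6, differed by -0.39 ± 0.09 (SE), and its highest mutant value lay below its lowest control value. Neurod6 is among the 8 excitatory markers, of which 3 had positive and 5 negative differences. Tbr1, also among them, differed by 0.17 ± 0.07, with all mutants above all controls and a limma adjusted p of 0.988. Overlapping list means therefore do not show an equal cell mix. Every direction given here rests on the labels. Xist was high in mutant replicates 1 and 4 (9.78 and 9.76) and between 2.64 and 3.41 in the other arrays, so for members described by array the value without these 2 arrays is given wherever it changed sign or moved clearly. In bulk tissue such as this, fewer cells of a type and less RNA per cell cannot be told apart. A probe set's brightness depends on its probes, so levels are compared between arrays for 1 gene and not between genes.

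Mutants were then set against controls to ask which relatives of Bcl6 differ in upper cortical layers once Bcl6 is targeted in excitatory neurons. No Zbtb gene passed the threshold. With limma and adjustment over all 19938 genes, 0 of 42 had an adjusted p under 0.05, against 0.0652% of all genes (0.0502% higher and 0.015% lower), and the smallest adjusted p in the family was 0.637. At an unadjusted p under 0.05 there was 1, lower in mutants (Zbtb16), or 2.38% of the family against 4.91% of all genes (1.64% higher and 3.28% lower). Zbtb16 was also the only one of the 42 whose mutant and control values did not overlap, again 2.38% against 2.75% of all genes (0.963% with mutants above and 1.79% with mutants below). These shares are near or below the background.

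Differences in the family were small and balanced. Of the 42 differences (mutant minus control, log2), 21 were positive and 21 negative, or 50% each, where all genes gave 44.6% and 55.4%, with a median of 0.00074 against -0.0096 over all genes. They ran from -0.26 (Zbtb16) to 0.16 (Zbtb20). In 34 of the 42 genes (81.0%) the difference was smaller than 0.1 in size, as in 76.7% of all genes, and in 28 it was smaller than its own standard error (SE). The median SE was 0.077, close to the 0.079 over all genes. These errors set a limit on what could have been missed in the array signal of the mixed tissue: all 42 intervals (95%) lay within -0.5 to 0.5, and 35 lay within -0.3 to 0.3. They do not bound a change inside the excitatory neurons alone, which other cells dilute. Control means went down to 4.35 (Zbtb11os1), and without detection calls a gene that was not detected could also give a narrow interval. Zbtb20 had the farthest bound, 0.42, which is a 1.34-fold difference, and Zbtb11, a nuclear protein needed for mitochondrial translation, had the nearest, at 0.14 or 1.10-fold.

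**Figure D1:**
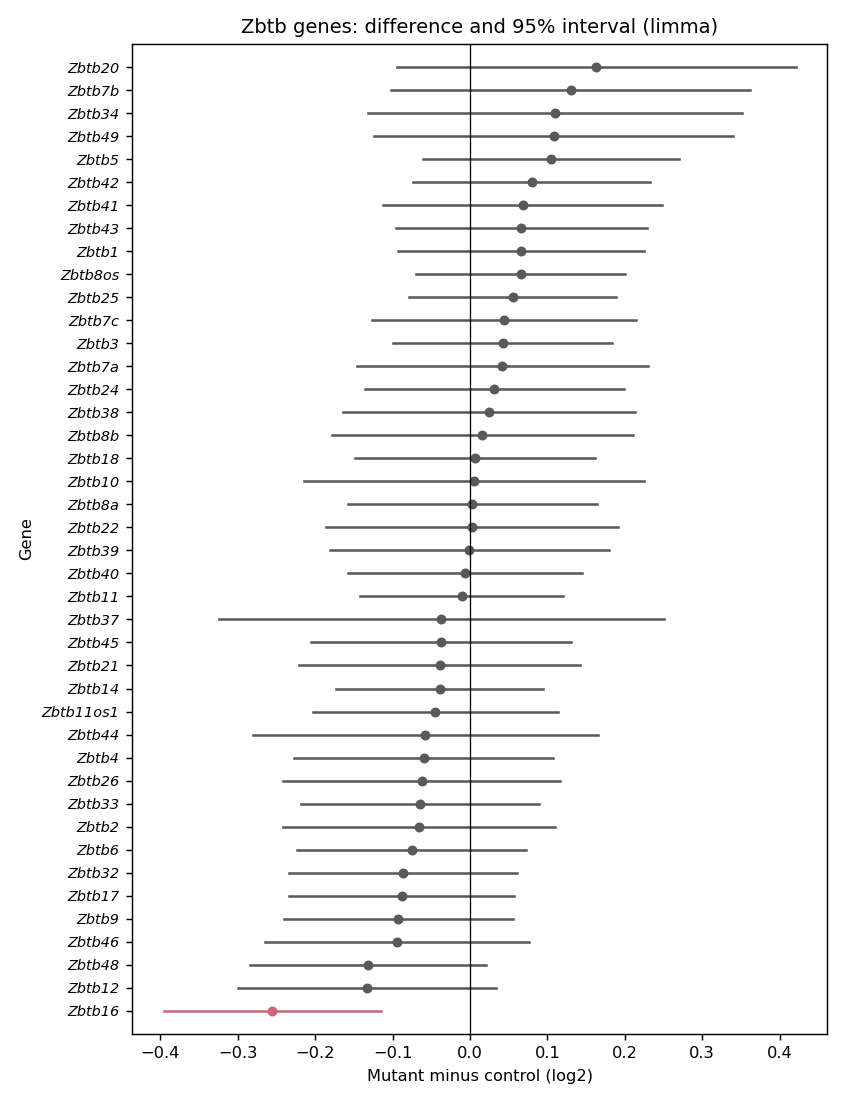
Size of the mutant minus control difference (x axis, log2 units) for each of the 42 genes (y axis), with a point for the estimate and a bar for limma's 95% interval from 4 control and 4 mutant arrays. Zbtb16, in red at -0.26, has an interval that excludes 0, and the other 41 cross it.

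**Figure D2:**
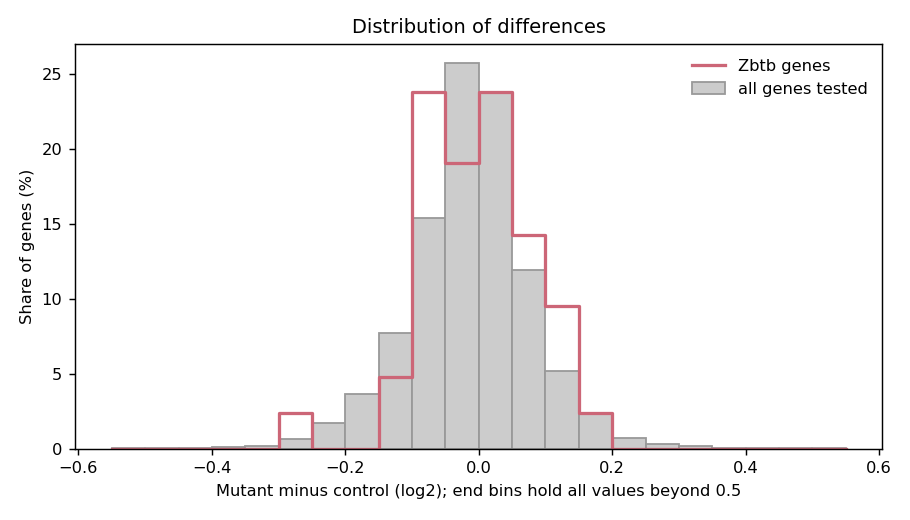
Share of genes in percent (y axis) by mutant minus control difference (x axis, bins of 0.05, log2), with grey bars for all 19938 genes and a red line for the 42 Zbtb genes. The line is above the bars from -0.1 to -0.05 (23.8% against 15.4%) and below them from -0.05 to 0 (19.0% against 25.7%). The outermost members are Zbtb16 at -0.26, in a bin apart from the rest, and Zbtb20 at 0.16.

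Members with known roles in the nervous system were examined first. Zbtb16 (PLZF) maintains germline and neural progenitors and directs innate-like T cells. In order of the replicate numbers, as for all genes below, its levels were 7.05, 7.09, 7.10 and 7.11 in the controls and 6.83, 6.78, 6.95 and 6.76 in the mutants. All mutant values lay below all control values. The means were 7.09 ± 0.026 (SD, n = 4) in controls and 6.83 ± 0.085 in mutants, a difference of -0.26 ± 0.06 (SE, 95% interval -0.40 to -0.11) or 1.19-fold more in controls. An exact permutation test gave p = 0.0286 (two-sided), the smallest that 4 against 4 arrays allow and the value of any gene without overlap. The adjusted p of limma was 0.637. The 4 control values were the tightest of any member. An SE from the spread of this gene alone would be 0.045, while limma, which pools the spread over genes, gave 0.065. The difference kept its sign in all 20 alternatives run for it, with limma adjusted p from 0.3004 to 0.998. It ran from -0.30 without mutant replicate 3 to -0.22 without the 2 arrays of high Xist. Several alternatives (dim-gene filters, priors, replicate block, probe set rule and symbols) could not move the difference of this gene.

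Zbtb16 is also made in oligodendrocyte progenitors and counts among the markers of layer IV. In these arrays the 7 oligodendrocyte lineage markers tested had 4 positive and 3 negative differences, with a mean level of 6.23 to 6.36 in controls and 6.22 to 6.40 in mutants. Among those made in progenitors, Pdgfra read 0.10 ± 0.10 (SE), Cspg4 0.069 ± 0.09, Olig1 0.14 ± 0.09, Sox10 0.032 ± 0.07 and Olig2 -0.010 ± 0.09, and the myelin genes Mbp and Mog read -0.097 ± 0.06 and -0.099 ± 0.09. Rorb, a receptor that defines layer IV neurons, differed by 0.10 ± 0.23. Its levels were 10.48, 10.50, 10.32 and 9.35 in controls and 10.39, 10.33, 10.50 and 9.81 in mutants, so replicate 4 was the lowest in both genotypes. A single gene that varies this much between arrays does not measure the layer IV content. In limma 0 of these 8 genes had an unadjusted p under 0.05, against 4.91% of all genes. The part of these cells in the Zbtb16 difference was not tested.

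Zbtb20 specifies hippocampal pyramidal neurons and promotes astrocyte formation. It read 8.35, 8.47, 8.29 and 7.94 in the controls and 8.60, 8.48, 8.48 and 8.15 in the mutants. In both genotypes replicate 4 was the lowest, and the groups overlapped. The difference of 0.16 ± 0.12 (SE) was the highest of the family, with a limma adjusted p of 1.00, and a second probe set of the gene gave 0.12 ± 0.07. The value fell to 0.055 without control replicate 4 and rose to 0.26 without mutant replicate 4. Without the 2 arrays of high Xist it was 0.22, and no setting passed the threshold. Astrocyte markers had differences above 0 in 7 of 8 cases, against 44.6% of all genes. Their median was 0.050, with 0 at an unadjusted p under 0.05 in limma, against 4.91% of all genes. The 8 markers were read on the same arrays, so they are not independent cases. The eighth, Gfap, read -0.11 ± 0.06, with all mutants below all controls. Mean marker levels were 7.66 to 7.80 in controls and 7.61 to 7.82 in mutants, and their part in the Zbtb20 value was not tested.

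Zbtb18 (RP58) is a repressor that cortical excitatory neurons need in order to leave the progenitor state and migrate. Its values were 12.04, 12.03, 11.84 and 11.84 in controls and 12.01, 11.90, 11.91 and 11.95 in mutants, all inside the control range. The difference was 0.0065 ± 0.07 (SE), with a 95% interval of -0.15 to 0.16, so a change beyond 1.12-fold in either direction lies outside it. Without the 2 arrays of high Xist it was -0.033. Of 7 genes that Zbtb18 is known to repress in cortex (Neurog2, Neurod1, Rnd2 and Id1 to Id4), 0 passed the adjusted threshold in limma and 0 had an unadjusted p under 0.05. Over all genes the shares were 0.0652% and 4.91%, so 0 of 7 is near the background. The median difference of the 7 was -0.0096. The smallest p among them belonged to Rnd2, which acts in migrating neurons, at 0.15 ± 0.09.

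Zbtb45, a regulator of glial differentiation, read 6.41, 6.40, 6.36 and 6.24 in controls and 6.28, 6.18, 6.498 and 6.29 in mutants. The mutants held both the highest and the lowest value. Its difference was -0.037 ± 0.08 (SE), of either sign over the alternatives and -0.010 without the 2 arrays of high Xist.

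**Figure D3:**
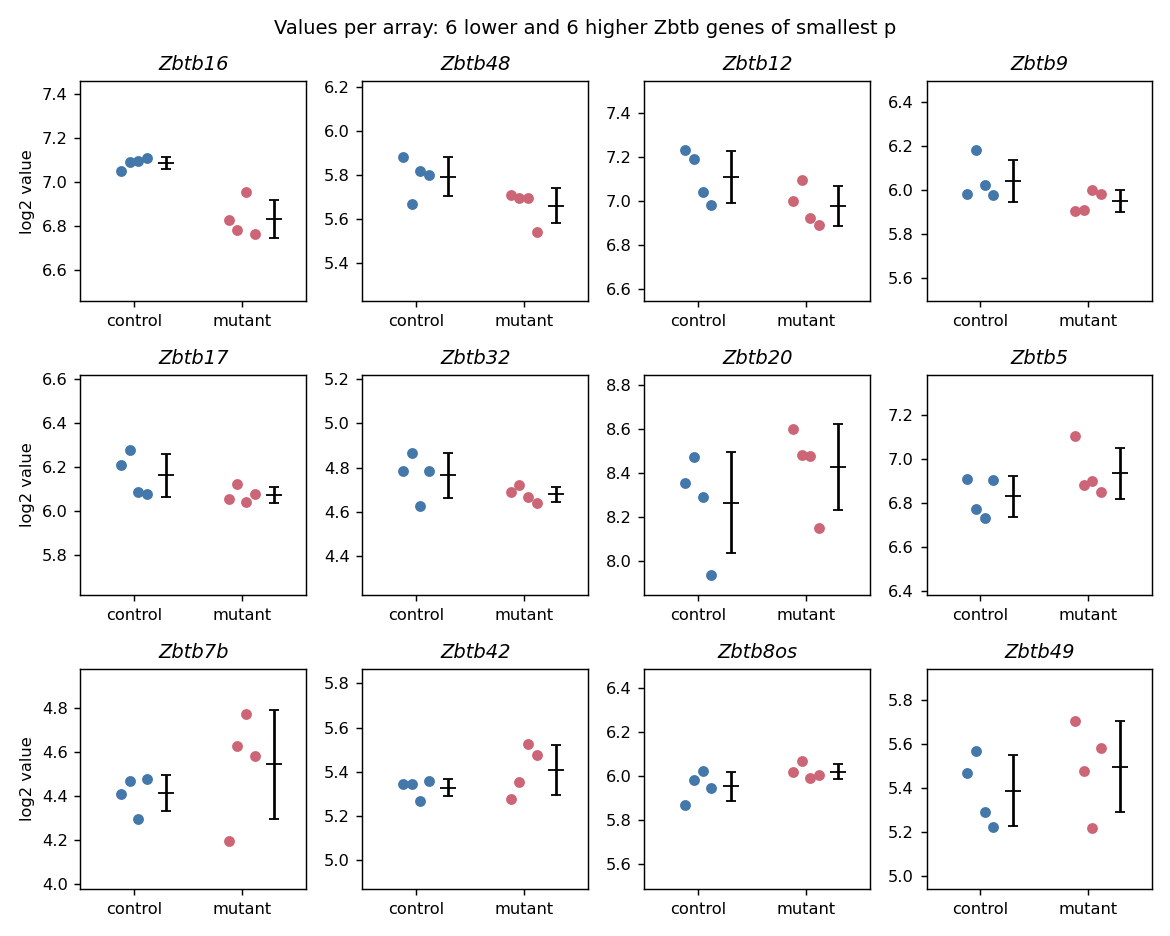
Deposited log2 value (y axis, each panel 1 unit high) per array in 4 control (blue) and 4 mutant (red) pups for the 6 lower and the 6 higher Zbtb genes of smallest p, with black bars for the group mean and SD. The Zbtb16 groups are apart (7.09 and 6.83), and in the 11 other panels they overlap.

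Members best known from blood and immune cells came next: 8 were tested, with 5 positive and 3 negative differences, where 44.6% of all genes were positive. In limma 0 passed at the adjusted threshold or at an unadjusted p under 0.05, against 0.0652% and 4.91% of all genes. In a group this small, 0 lies near those shares and is no result about the group, which also holds for the groups below. Zbtb7b (ThPOK), which commits T cells to the CD4 lineage, read 4.41, 4.47, 4.30 and 4.48 in controls and 4.19, 4.63, 4.77 and 4.58 in mutants. Mutant replicate 1 was the lowest of the 8 arrays and mutant replicates 2, 3 and 4 were the highest. The mutant SD of 0.25 was the widest of the family, and the difference was 0.13 ± 0.11 (SE). Without mutant replicate 1 it was 0.25 ± 0.08, and without both arrays of high Xist 0.29 ± 0.09, while without mutant replicate 3 it was 0.054 ± 0.11. The first 2 of those fits had unadjusted p of 0.0083 and 0.0088 and limma adjusted p of 1.00 and 0.998. Lymphocyte markers, 5 of them tested, had mean levels of 3.84 to 4.02 in controls and 3.84 to 3.98 in mutants.

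Zbtb17 (Miz-1), a partner of Myc in repression, read 6.21, 6.28, 6.09 and 6.08 in controls and 6.06, 6.12, 6.04 and 6.08 in mutants. Control replicates 1 and 2 stood above all mutants while control replicates 3 and 4 lay among them, and the difference was -0.088 ± 0.07 (SE). Zbtb32, which restrains cytokine genes in T cells, read 4.79, 4.86, 4.62 and 4.78 in controls and 4.69, 4.72, 4.67 and 4.64 in mutants, with control replicate 3 below all mutants and the rest of the controls above them, and a difference of -0.086 ± 0.07. Zbtb7a (LRF), a silencer of fetal globin genes and a regulator of blood lineages, read 5.83, 6.02, 5.89 and 5.71 in controls and 6.01, 5.92, 5.98 and 5.71 in mutants. Both genotypes covered nearly the same range, and its difference was 0.042 ± 0.09, or 0.086 without the 2 arrays of high Xist. The rest of this group were Zbtb46 of classical dendritic cells and endothelium (-0.095 ± 0.08), Zbtb1 of lymphoid precursors (0.066 ± 0.07), Zbtb25 (0.055 ± 0.06) and Zbtb24, which is needed for methylation of centromeric repeats (0.031 ± 0.08).

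The 3 members that bind methylated DNA gave 1 positive and 2 negative differences. In limma 0 passed at the adjusted or the unadjusted threshold, against 0.0652% and 4.91% of all genes. Zbtb33 (Kaiso), the only member on the X chromosome, read 7.51, 7.65, 7.46 and 7.62 in controls and 7.52, 7.45, 7.41 and 7.60 in mutants. Neither genotype stood apart, and the difference of -0.065 ± 0.07 (SE) was -0.13 without the 2 arrays of high Xist. Zbtb4 read 6.08, 6.22, 6.26 and 6.17 in controls and 5.96, 6.17, 6.26 and 6.10 in mutants. Its difference of -0.060 ± 0.08 was 0.033 without those 2 arrays, so its sign rests on them. Zbtb38 read 9.09, 9.21, 8.92 and 8.84 in controls and 9.17, 9.01, 9.01 and 8.97 in mutants, with all mutants inside the control range and a difference of 0.025 ± 0.09 that was -0.0042 without those 2 arrays.

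Members tied to growth and the cell cycle gave 3 positive and 2 negative differences among 5. Again 0 passed in limma at the adjusted or the unadjusted threshold, against 0.0652% and 4.91% of all genes. Zbtb5, a repressor of the cell cycle inhibitor p21, read 6.91, 6.77, 6.73 and 6.90 in controls and 7.10, 6.88, 6.90 and 6.85 in mutants. Mutant replicate 1 was above all other arrays, and the difference of 0.10 ± 0.08 (SE) was 0.048 without it and 0.061 without both arrays of high Xist. Zbtb49, which activates p21, read 5.47, 5.57, 5.29 and 5.22 in controls and 5.71, 5.48, 5.22 and 5.58 in mutants, with full overlap at the low end. Its difference of 0.11 ± 0.11 became -0.040 without the 2 arrays of high Xist, which hold its highest values. Zbtb7c read 5.59, 5.51, 5.33 and 5.58 in controls and 5.61, 5.42, 5.51 and 5.64 in mutants, a difference of 0.044 ± 0.08 that was -0.036 without the same 2 arrays. Zbtb2, a repressor in the p53 pathway, and Zbtb14, a repressor of the Myc promoter, read -0.066 ± 0.08 and -0.039 ± 0.06. A second probe set of Zbtb2 gave -0.037 ± 0.08.

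Of the 3 members reported to bind telomeric repeats, Zbtb48 (TZAP), which trims long telomeres, had the second smallest p of the family. It read 5.88, 5.67, 5.82 and 5.80 in controls and 5.71, 5.69, 5.70 and 5.54 in mutants. Control replicate 2 lay among the mutants and control replicates 1, 3 and 4 lay above them. The difference was -0.13 ± 0.07 (SE; limma adjusted p of 1.00), and without 1 array it ran from -0.17 (control replicate 2 left out, unadjusted p of 0.033 and adjusted p of 0.923 in limma) to -0.092 (mutant replicate 4 left out, unadjusted p of 0.238). Without the 2 arrays of high Xist the Zbtb48 difference was -0.097. Zbtb10 and Zbtb40 differed by 0.0052 ± 0.10 and -0.0065 ± 0.07.

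The remaining 17 Zbtb genes, less studied as a whole, gave 8 positive and 9 negative differences between -0.13 and 0.11. Of these, 0 passed in limma at the adjusted or the unadjusted threshold, against 0.0652% and 4.91% of all genes. Zbtb12 lay at the low end, with 7.23, 7.19, 7.04 and 6.98 in controls and 7.001, 7.10, 6.92 and 6.89 in mutants. Its ranges overlapped in their middle part, and the difference was -0.13 ± 0.08 (SE), and without 1 array it ran from -0.18 (control replicate 4 left out, unadjusted p of 0.048 in limma) to -0.093 (control replicate 1 left out, unadjusted p of 0.275). Without the 2 arrays of high Xist the Zbtb12 difference was -0.10. Zbtb9 read 5.98, 6.18, 6.03 and 5.98 in controls and 5.90, 5.91, 6.003 and 5.98 in mutants. Control replicate 2 stood above the rest, and the difference of -0.092 ± 0.07 was -0.045 without it.

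Among the higher genes of that group, Zbtb42, a muscle protein that closely resembles Zbtb18, read 5.34, 5.34, 5.27 and 5.36 in controls and 5.28, 5.35, 5.52 and 5.48 in mutants. Mutant replicates 3 and 4 stood above all controls and mutant replicates 1 and 2 did not. The difference was 0.080 ± 0.07 (SE), or 0.11 without the 2 arrays of high Xist. Zbtb34 gave the highest difference of these 17, 0.11 ± 0.11, with control replicate 4 at 7.002 against 7.33 to 7.46 in the other controls. Zbtb44 and its second probe set gave -0.058 ± 0.10 and -0.073 ± 0.12. The differences of Zbtb3, Zbtb6, Zbtb8a, Zbtb8b, Zbtb11, Zbtb21, Zbtb22, Zbtb26, Zbtb37, Zbtb39, Zbtb41 and Zbtb43 lay between -0.075 (Zbtb6) and 0.068 (Zbtb41). Of the 2 genes that only share the name, Zbtb8os read 5.87, 5.98, 6.02 and 5.94 in controls and 6.02, 6.07, 5.99 and 6.004 in mutants, a difference of 0.066 ± 0.06, and Zbtb11os1 differed by -0.045 ± 0.07.

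Exact permutation tests of the 18 members given here by array besides Zbtb16 had unadjusted p from 0.114 (Zbtb48) to 0.971 (Zbtb18), two-sided.

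The control arrays differed among themselves across the family. Taking each gene's deviation from its own mean over the 8 arrays, the median over the 42 genes was 0.10 in control replicate 2 and 0.047 in control replicate 1, but -0.043 and -0.041 in control replicates 3 and 4. The same medians over all genes were 0.032, 0.0039, -0.0087 and 0.000089. Among mutants the family medians lay between -0.030 and 0.0053. Control replicate 2 held the highest value of 14 members and the lowest of 0, while control replicate 4 held the lowest of 12 and control replicate 3 of 9. Zbtb37 had the widest control SD, 0.30, with 6.71 in control replicate 4 against 7.18 to 7.35 in the other controls. Zbtb11 had the narrowest range over all 8 arrays, 0.11, and Zbtb20 the widest, 0.66.

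**Figure D4:**
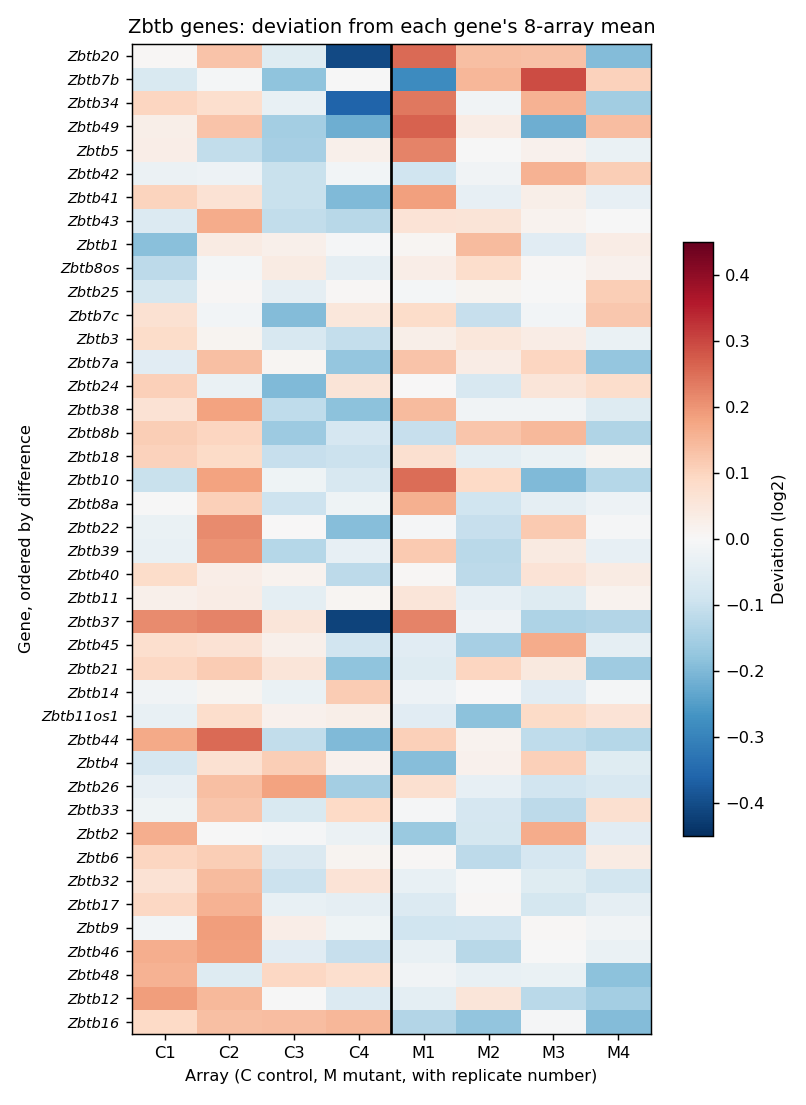
Deviation of each log2 value from the gene's mean over 8 arrays (colour), for the 42 genes (rows, from the highest difference at the top to the lowest) and the 8 arrays (columns, C control and M mutant with the replicate number). Control replicate 2 is mostly red (family median 0.10), control replicates 3 and 4 are mostly blue (-0.043 and -0.041), and Zbtb16 in the bottom row is red in all controls and blue or near white in all mutants.

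Members were also described by their place in the genome, which the choice of genes did not use. In the RefSeq gene order of GRCm38.p6 they lay on 15 chromosomes, with 7 on chromosome 4 and 5 on chromosome 2. Several sat next to each other with no protein-coding gene between them. Zbtb34 and Zbtb43 differed by 0.11 and 0.067, Zbtb6 and Zbtb26 by -0.075 and -0.062, and Zbtb25 and Zbtb1 by 0.055 and 0.066. Zbtb8os, Zbtb8a and Zbtb8b, in a row on chromosome 4, differed by 0.066, 0.0031 and 0.016. Zbtb11 and Zbtb11os1 differed by -0.011 and -0.045. In each of these sets the sign was shared, but how often neighbours share a sign over all genes was not computed. Several of these differences were far below their SE, such as Zbtb8a (0.0031 ± 0.07) and Zbtb11 (-0.011 ± 0.06), so their signs carry little. In limma 0 of these genes had an unadjusted p under 0.05, against 4.91% of all genes.

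Promoter windows of RefSeq (GRCm38.p6, 250 bases before to 50 after each start) were found for 37 of the 42 genes, 50 windows in all. Zbtb7c, Zbtb10, Zbtb16, Zbtb40 and Zbtb48 were not matched. The windows were rich in CpG: a median of 24.5 CpG and 64.3% G and C, against 7 and 52.7% over all 32851 windows. The latter belong to 27025 genes and were not limited to genes on the array. The motif shares below were not matched for base content. Windows of Zbtb46, Zbtb20 and Zbtb7b held the fewest, with 1, 3 and 8 at most for the gene. Because Bcl6 is a repressor whose loss is the subject of the study, its full motif TTCCTAGAA and the looser core TTCNNNGAA, which contains it, were searched on both strands. The full motif was in 0.411% of all windows and in none of the 50, and the core was in 8.30% of all windows and in 1 of the 50 (2.0%), that of Zbtb20. The motif of Kaiso, TCCTGCNA, was in 4.96% of all windows and in 4 of the 50 (8.0%), which belong to Zbtb18 and Zbtb37, and some of the Zbtb18 windows overlap. The motif of Zbtb18, ACATCTGGA, was in 0.332% of all windows and in none of the 50. These matches are descriptions of letters and not of binding. They are shown because they are the only matches in the family, with the match in capitals and 10 bases on either side. In the first the capitals mark the Bcl6 core, at position 33 after the start of Zbtb20, on the plus strand at chr16:43247306-43247333. In the others they mark the Kaiso motif. Each sequence is printed on the strand of its gene. Zbtb18 lies on the plus strand, and its sites at chr1:177444514-177444541 and chr1:177444820-177444847 show the reverse complement of the motif. Zbtb37 lies on the minus strand, and its site shows the motif as written, at chr1:161034904-161034931.
Zbtb20: ctgaagtctgTTCTGAGAAcatttacag
Zbtb18: aaaaagctggTGGCAGGAgtgtagagga
Zbtb18: aaggtaggagTAGCAGGAgattaggctg
Zbtb37: gggagggggcTCCTGCAAggaaagcgct
A link between a match and a difference was not tested, and Zbtb16, with the largest difference in size, had no window to search. Zbtb20, with the Bcl6 core, differed by 0.16 ± 0.12 (SE), which did not pass the threshold and was 0.055 without control replicate 4. Zbtb18 and Zbtb37, with the Kaiso motif, differed by 0.0065 ± 0.07 and -0.037 ± 0.13.

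Partners of the family were taken from lists chosen for their known roles. Of 7 BTB zinc-finger genes with other names, 0 passed the adjusted threshold in limma, against 0.0652% of all genes. At an unadjusted p under 0.05 in limma, 2 were lower, where 3.28% of all genes were. These were Bcl6b, the closest relative of Bcl6 (-0.20 ± 0.09, SE), and Hic1, a repressor lost in many tumours (-0.23 ± 0.10), and the mutant and control values of both overlapped. Patz1, Mynn, Gzf1, Hic2 and Zfp131 lay between -0.067 and 0.087. Of 21 co-repressor genes 19 were tested, and 0 passed while 1 was lower at an unadjusted p under 0.05, against the same 3.28% of all genes. This was Hdac9, a class IIa histone deacetylase, at -0.36 ± 0.07 with a limma adjusted p of 0.265. All its mutants lay below all controls, as in 1.79% of all genes. Any gene without overlap gets p = 0.0286 in the two-sided exact permutation test, so that p adds nothing to the lack of overlap. Cul3, the ubiquitin ligase scaffold that binds BTB proteins, read 0.00069 ± 0.06, and the median of the 19 was -0.016.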

How the data were processed

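The authors deposited log2 values for 35556 probe sets on 8 Mouse Gene 1.0 ST arrays. Per the labels' design text they were made with BRB-ArrayTools, but its version, background correction, normalization and summarization were not given in the sources used here. The log2 scale was inferred from the range of the deposited table. Without detection calls in that table, dim genes carry no mark of being undetected. With 4 arrays a group, their number sets the precision.

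Probe sets were named from the platform's annotation, with symbols updated through Entrez identifiers (21698 of 21789 single-gene probe sets matched), and the brightest probe set per gene was kept. The comparison used lmFit and eBayes of limma 3.58.1 under R 4.3.3 (genotype only, all 8 arrays, two-sided, no filter on dim genes), with Benjamini-Hochberg adjustment over 19938 genes and a threshold of 0.05. The fit was tested on simulated data whose changes were larger than any difference in the family. That test therefore says nothing about power at the sizes found here. Replicates are separate pups per the design text. Members given by array were the 6 of smallest p in each direction, any with groups that did not overlap, and 11 named for their roles. The members and lists were chosen with earlier results of these data known. Alternatives changed the normalization, dim-gene filter, prior, array weights, replicate block, probe set rule, symbols, threshold and arrays used.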

Additional observations from a re-analysis of the deposited data

Results flagged for a closer look

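In 3 of the 84 groups of 4 arrays (42 genes in 2 genotypes), 1 array stood apart from the rest of its group by more than Dixon's 95% limit, and chance gives about 1 in 20 groups. Zbtb2 read 6.12 in control replicate 1 against 5.93 to 5.95 in the other controls. Zbtb42 read 5.27 in control replicate 3 against 5.34 to 5.36. Zbtb48 read 5.54 in mutant replicate 4 against 5.69 to 5.71 in the other mutants.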

How the results depend on the processing

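No setting called a Zbtb gene or one of the 26 partner genes past the adjusted threshold, which was also raised to 0.1. The median difference of the family, 0.00074, moved between -0.032 and 0.034, less than the spread between control arrays. The number of members at an unadjusted p under 0.05, which is 1, was between 1 and 2 when 1 array was left out, with 0 to 1 higher and 1 to 2 lower. The replicate numbers were not treated as pairs in the main fit. Correlations of same-numbered deviations ran from -0.012 to 0.16, and 3 of 8 arrays correlated best with their own number. The highest was that of control and mutant replicate 4. Correlations this low cannot show whether the pups were paired. With the replicate block, calls over all genes went from 13 to 5, and 2 members (1 higher, Zbtb20) had an unadjusted p under 0.05. The SE of Zbtb20 was 0.07 with the block and 0.12 without it. Without the 2 arrays of high Xist there were also 2 (1 higher, Zbtb7b), and 2 genes in all were called. Of 375 single-member values under alternatives, 361 kept their direction and 14, in 7 members, changed sign. The limma adjusted p was at least 0.3004 throughout. Many of the 361 were fixed in advance, because dim-gene filters, priors and the replicate block left every difference as it was. The symbols and, for genes with 1 probe set, the probe set rule did so too. Without the 2 arrays of high Xist the changed signs were Zbtb18 at -0.033, Zbtb38 at -0.0042, Zbtb4 at 0.033, Zbtb49 at -0.040 and Zbtb7c at -0.036. With 1 array left out, Zbtb18 ran from -0.028 to 0.042, Zbtb38 from -0.033 to 0.090, Zbtb45 from -0.099 to 0.0060, Zbtb7a from -0.0095 to 0.11 and Zbtb7c from -0.014 to 0.085; the cause was not tested.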
